A study of Mus musculus with 6 samples.

Results

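The 10 genes described here, Sox1, Sox2, Sox3, Sox4, Sox5, Sox8, Sox9, Sox10, Sox11 and Sox13, encode transcription factors of the Sox family and were measured by RNA sequencing in newborn mouse striatum. They were taken by symbol from a deposited table of 47062 genes, in which each of the 10 had 1 row, and all 10 passed the filter on low values that 16666 genes passed. The dissected striatum included the subventricular zone, the layer of dividing cells along the ventricle, and came from pups at postnatal day 0 of a mixed C57BL/6J, 129S6 and CD1 background. The 3 control libraries came from littermates with floxed alleles of Sp9, a zinc finger transcription factor gene (Sp9Flox/Flox). The 3 mutant libraries came from pups with the same floxed alleles and the transgene Drd2-Cre (Drd2-Cre;Sp9Flox/Flox), in which Drd2 regulatory sequence drives Cre recombinase. Drd2 encodes a dopamine receptor of the indirect pathway projection neurons of the striatum. No group carried Drd2-Cre without the floxed alleles, so effects of the deletion and of the transgene cannot be told apart. The labels do not say whether a library came from 1 animal, so the spread given here is that between libraries.

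Sox proteins bind DNA through a high mobility group (HMG) box related to that of Sry. In the developing brain the SoxB1 genes (Sox1, Sox2, Sox3) keep neural progenitors undifferentiated, the SoxC genes (Sox4, Sox11) act in newly formed neurons, and the SoxE genes (Sox8, Sox9, Sox10) act in glia. Sox9 is expressed in radial glia and astrocytes and starts glial development, and Sox10 drives the oligodendrocyte lineage. The SoxD genes (Sox5, Sox13) encode proteins without a known activation domain of their own, which act together with other Sox factors. The 10 genes were chosen by family and role with the FPKM and scaled counts of mutants and controls in view, among them the lower level of Sox9. The differences between the groups are therefore given as a description of these 6 libraries. No p-value is given for any of the 10, and counts of those past a threshold in the fit across all genes support nothing by themselves.

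The start of the HMG box shows how closely these genes are related, and bears on whether a sequenced fragment can be assigned to 1 of them. Each line below gives 60 coding bases, 5′ to 3′ on the coding strand, from the same aligned start of the box, from GENCODE M21 transcripts on GRCm38. Capitals mark bases that differ from Sox9.
Sox9 (chr11:112782903-112782962, plus strand): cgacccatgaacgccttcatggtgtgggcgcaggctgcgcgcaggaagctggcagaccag
Sox8 (chr17:25570163-25570222, minus strand): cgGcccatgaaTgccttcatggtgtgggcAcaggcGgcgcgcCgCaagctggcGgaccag
Sox10 (chr15:79163342-79163401, minus strand): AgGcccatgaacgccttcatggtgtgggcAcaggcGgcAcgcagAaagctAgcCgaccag
Sox2 (chr3:34650548-34650607, plus strand): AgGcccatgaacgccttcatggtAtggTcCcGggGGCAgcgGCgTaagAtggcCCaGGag
Sox4 (chr13:28952782-28952841, minus strand): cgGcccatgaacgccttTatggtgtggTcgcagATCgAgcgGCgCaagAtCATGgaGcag
Sox5 (chr6:143841214-143841273, minus strand): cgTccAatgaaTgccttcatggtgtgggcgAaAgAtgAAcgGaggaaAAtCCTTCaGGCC
Over these bases Sox8 differed from Sox9 at 7 positions and Sox10 at 8, against 18 for Sox2, 16 for Sox4 and 20 for Sox5. Over 210 bases from the same start, the 8 pairs within a subgroup were identical at 82.4 to 91.0% of positions, and the 37 pairs across subgroups at 55.7 to 75.2%. The longest stretch of coding sequence shared without a mismatch was 48 bases, between Sox4 and Sox11. For Sox9 it was 44 bases, shared with Sox10 just before the box (chr11:112782831-112782874 in Sox9), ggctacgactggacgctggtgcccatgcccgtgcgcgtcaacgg, and 23 bases with Sox8. The read length is not given in the sources used here, so how many fragments fit 2 members was not measured. Such stretches are short beside the coding lengths of 957 (Sox2) to 2289 (Sox5) bases.

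Levels of the 10 genes in the control libraries spanned more than 2 orders of magnitude, with the SoxC genes highest and Sox3 lowest. Values are FPKM, a measure of fragments per transcript length and library size, which can be compared between genes. Sox4 had a mean of 177 ± 13.4 and Sox11 of 110 ± 3.03 (SD, n = 3 each), above 96.4% and 94.4% of the tested genes. Sox8 followed with 35.8 ± 7.82, Sox2 with 22.9 ± 1.72, Sox9 with 15.1 ± 1.46 and Sox1 with 9.56 ± 0.585. At the lower end Sox10 had 4.19 ± 0.575, Sox5 3.93 ± 1.29, Sox13 2.52 ± 0.318 and Sox3 1.36 ± 0.199 (SD, n = 3 each). In this order, every control library of a gene lay above every control library of the next one, except for Sox10 and Sox5, whose control ranges overlapped. Sox4 rested on 11576 to 14712 estimated fragments per library and Sox3 on 32 to 47, so counting error weighs far more on Sox3.

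**Figure D1:**
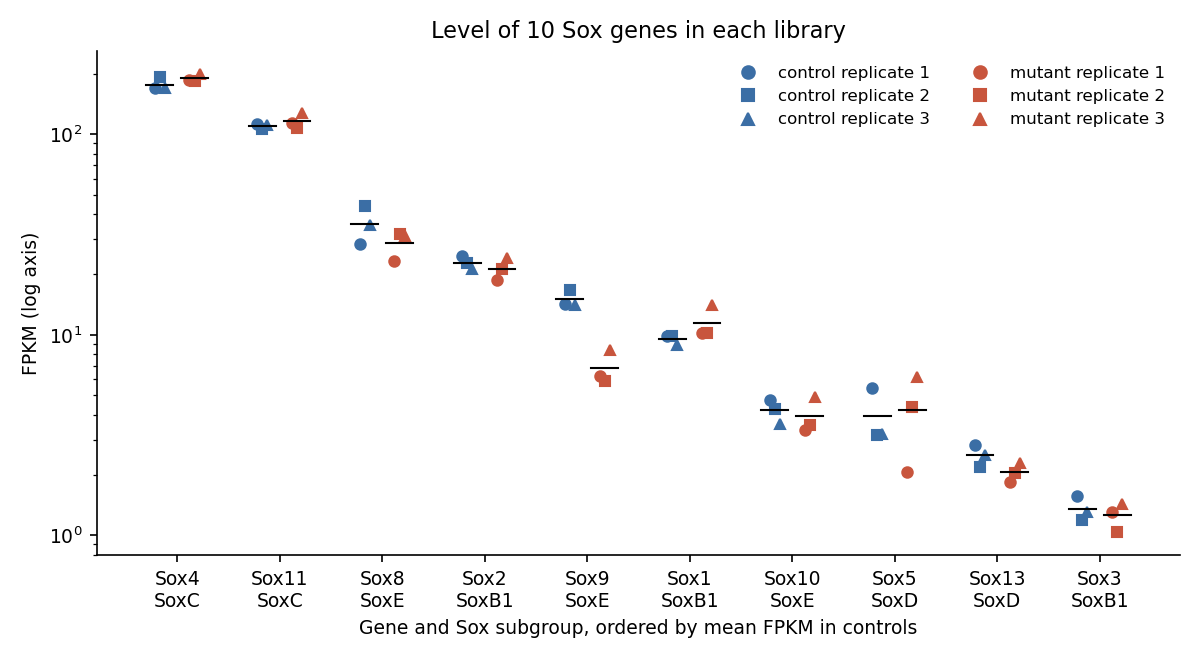
FPKM (log axis) of the 10 Sox genes in each of the 6 libraries, with controls in blue and mutants in red, symbols for the replicate numbers and a bar for each group mean. Sox9 is the gene in which the mutant points (5.90 to 8.42) lie well under the control points (14.2 to 16.7).

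Sox9 (ENSMUSG00000000567; GRCm38 chromosome 11, 112782224 to 112787760, plus strand) was the 1 gene of the 10 that differed 2-fold or more between the groups. Its FPKM was 14.3, 16.7 and 14.2 in control replicates 1 to 3 and 6.23, 5.90 and 8.42 in mutant replicates 1 to 3. All 3 mutants lay below all 3 controls, and the highest mutant, replicate 3, was still well under the lowest control. The means were 15.1 ± 1.46 and 6.85 ± 1.37 (SD, n = 3 each), a mutant level 54.5% lower. On the log2(FPKM + 0.5) scale the fold change was -1.09 ± 0.15 (SE; 95% interval -1.46 to -0.73), or 2.13-fold. In the authors' count columns, whose values are estimated fragments multiplied by 1 factor per library and are called scaled counts here, Sox9 had 1026, 1202 and 1011 in controls and 444, 420 and 603 in mutants. The log2 fold change on that scale was -1.16 ± 0.13 (SE). In bulk tissue, fewer cells that express a gene and less RNA per cell cannot be told apart.

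The other SoxE genes did not show a difference of that size. Sox8, which acts beside Sox9 and Sox10 in glia, had an FPKM of 28.3, 43.9 and 35.4 in controls and 23.5, 31.9 and 31.0 in mutants. These groups overlapped, and control replicate 1 lay below 2 of the mutants. The log2 fold change of Sox8 was -0.30 ± 0.19 (SE; 95% interval -0.78 to 0.18). Sox10 had 4.73, 4.27 and 3.58 in controls and 3.35, 3.56 and 4.89 in mutants, so its highest library was mutant replicate 3. Its log2 fold change was -0.09 ± 0.17 (SE; 95% interval -0.51 to 0.32). Summed over the 3 SoxE genes, FPKM was 55.1 ± 8.98 in controls and 39.6 ± 5.83 in mutants (SD, n = 3 each). Sox9 made up 30.2, 25.8 and 26.7% of that sum in control replicates 1 to 3 and 18.9, 14.3 and 19.0% in mutant replicates 1 to 3. Sox8 was the largest part of the SoxE sum in every library, at 59.8 to 67.6% in controls and 70.0 to 77.1% in mutants.

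Of the SoxB1 genes, Sox2, the progenitor factor with the highest level of the 3, had 24.7, 22.7 and 21.3 in controls and 18.8, 21.3 and 24.1 in mutants. The groups overlapped, and the log2 fold change was -0.10 ± 0.11 (SE; 95% interval -0.36 to 0.16). Sox1, which also acts in neurons of the ventral striatum, had 9.89, 9.89 and 8.88 in controls and 10.2, 10.3 and 14.0 in mutants. All 3 mutants were above all 3 controls, but the lowest mutant exceeded the highest control by little and mutant replicate 3 stood apart. The log2 fold change of Sox1 was 0.24 ± 0.14 (SE; 95% interval -0.10 to 0.58), and 0.10 without mutant replicate 3. Sox3, the X-linked member, had 1.58, 1.19 and 1.30 in controls and 1.31, 1.03 and 1.43 in mutants, with groups that overlapped and a log2 fold change of -0.08 ± 0.15 (SE). The sum of the SoxB1 genes was 33.8 ± 2.36 in controls and 34.1 ± 4.84 in mutants (SD, n = 3 each).

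The SoxC genes were the most even across libraries. Sox4 had 169, 192 and 169 FPKM in controls and 186, 185 and 200 in mutants, with a log2 fold change of 0.11 ± 0.07 (SE; 95% interval -0.06 to 0.27). For Sox4 only control replicate 2 lay within the mutant range. Sox11 had 112, 107 and 112 in controls and 113, 107 and 128 in mutants, and its log2 fold change was 0.07 ± 0.07 (SE; 95% interval -0.10 to 0.25). Residual standard deviations within groups were 0.09 for both genes on the log2 scale, against a median of 0.13 over all tested genes. Neither interval reaches a 2-fold difference, and both are given as a description of these libraries.

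The SoxD genes were low and, for Sox5, uneven. Sox13 had 2.84, 2.20 and 2.51 in controls and 1.84, 2.04 and 2.29 in mutants, with 1 mutant inside the control range and a log2 fold change of -0.24 ± 0.13 (SE; 95% interval -0.56 to 0.08). Sox5 had 5.42, 3.17 and 3.20 in controls and 2.08, 4.37 and 6.14 in mutants. Its residual standard deviation of 0.57 was the highest of the 10 genes, and the log2 fold change of 0.02 ± 0.39 (SE) had a 95% interval from -0.96 to 0.99, so the interval spans both a rise and a fall of nearly 2-fold.

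The scaled counts of Sox5 did not follow its FPKM. They were 229, 276 and 201 in control replicates 1 to 3 and 256, 198 and 402 in mutant replicates 1 to 3, so mutant replicate 1, the lowest library in FPKM, was the third highest in scaled counts. The scaled count per FPKM unit, which rises with the transcript length behind the FPKM, ran from 42.2 to 123 between libraries, a 2.92-fold range. Only 0.715% of 15101 genes had a range as wide, and their median range was 1.05-fold. Sox5 spans 954 kb with 14 annotated transcripts in GENCODE M21. For Sox13, with 5 annotated transcripts, the range was 1.18-fold, and for the other 8 members it was 1.01-fold to 1.05-fold. Sox5 had a log2 fold change of 0.23 ± 0.24 (SE) on scaled counts.

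**Figure D2:**
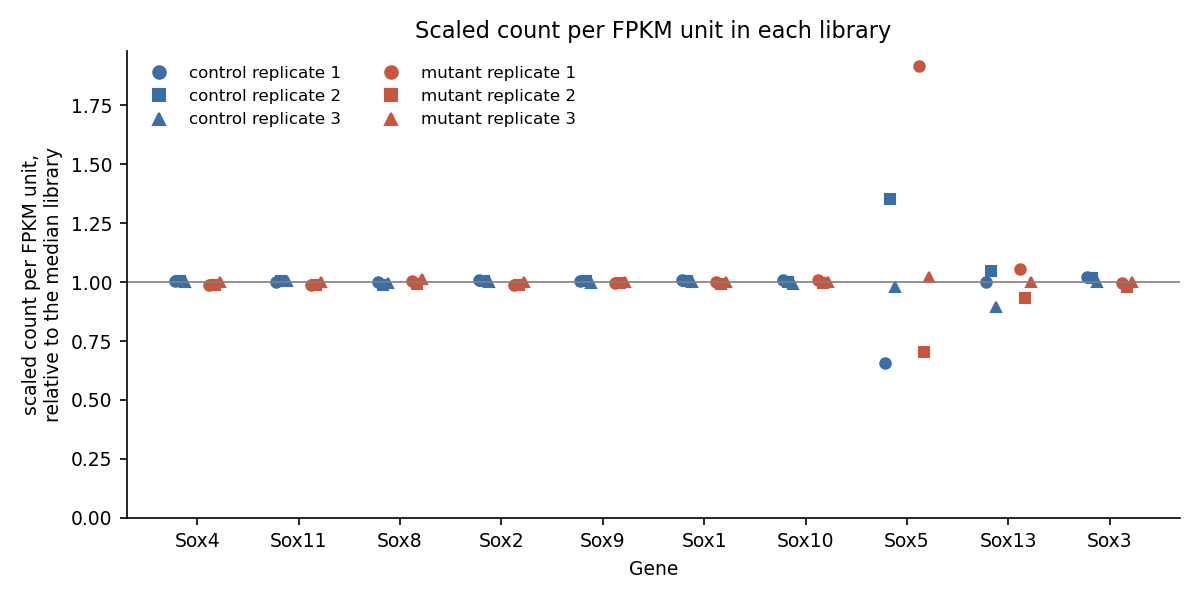
Scaled count per FPKM unit for each of the 10 Sox genes and each library, divided by the median library of that gene; controls in blue, mutants in red, symbols for the replicate numbers. For 8 genes the libraries lie close to 1, whereas those of Sox5 are spread over a 2.92-fold range.

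**Figure D3:**
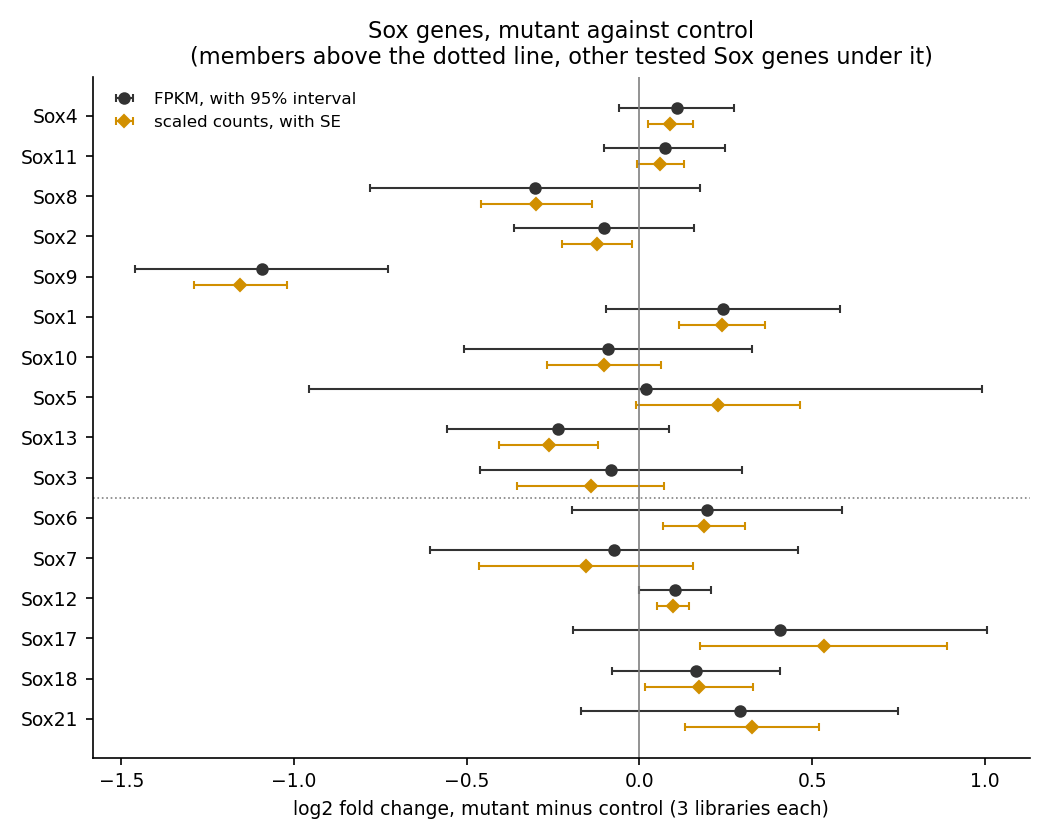
Log2 fold change, mutant minus control (3 libraries each), of the 10 Sox genes and of 6 other Sox genes, on FPKM (black, with 95% intervals) and on scaled counts (orange, with SE). Sox9 lies at -1.09 on FPKM, and the other 9 genes of the list lie between -0.30 and 0.24.

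In the fit across all 16666 genes (limma, Benjamini-Hochberg), none of the 10 genes had an adjusted p under 0.05, a rule that called 0.0600% of all genes, and 1 (Sox9) had an unadjusted p under 0.05, as had 5.65% of all genes. By the rule in the study's design, a fold of at least 2 and an unadjusted p of at most 0.05, 1 of the 10 was called, again Sox9, against 0.342% of all genes. On scaled counts 1 of the 10, Sox9, had an adjusted p under 0.05 (limma), against 0.143% of 16125 genes, and the same gene was the 1 member with an unadjusted p under 0.05 there, against 6.42%. Groups did not overlap in 2 of the 10 genes, Sox9 and Sox1, against 11.4% of all tested genes. Since the list was made with this comparison in view, these counts are no evidence about the family. The median log2 fold change was -0.09 over the 10 genes, with 4 above 0 and 6 below, and 0.00 over all tested genes.

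Ratios between members within a library do not depend on how that library was scaled. The log2 ratio of Sox9 to Sox2 was -0.79, -0.44 and -0.59 in control replicates 1 to 3 and -1.59, -1.85 and -1.52 in mutant replicates 1 to 3, groups that do not overlap. The mean went from -0.61 ± 0.18 to -1.65 ± 0.18 (SD, n = 3 each), a difference of -1.05. In linear terms Sox9 was at 0.578 to 0.736 of the level of Sox2 in controls and at 0.277 to 0.349 of it in mutants. The log2 ratio of Sox9 to Sox8 went from -1.23 ± 0.22 to -2.08 ± 0.31 (SD, n = 3 each), again with no overlap. By contrast, the log2 ratio of Sox4 to Sox11 was 0.68 ± 0.15 in controls and 0.72 ± 0.07 in mutants (SD, n = 3 each), with groups that overlapped.

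**Figure D4:**
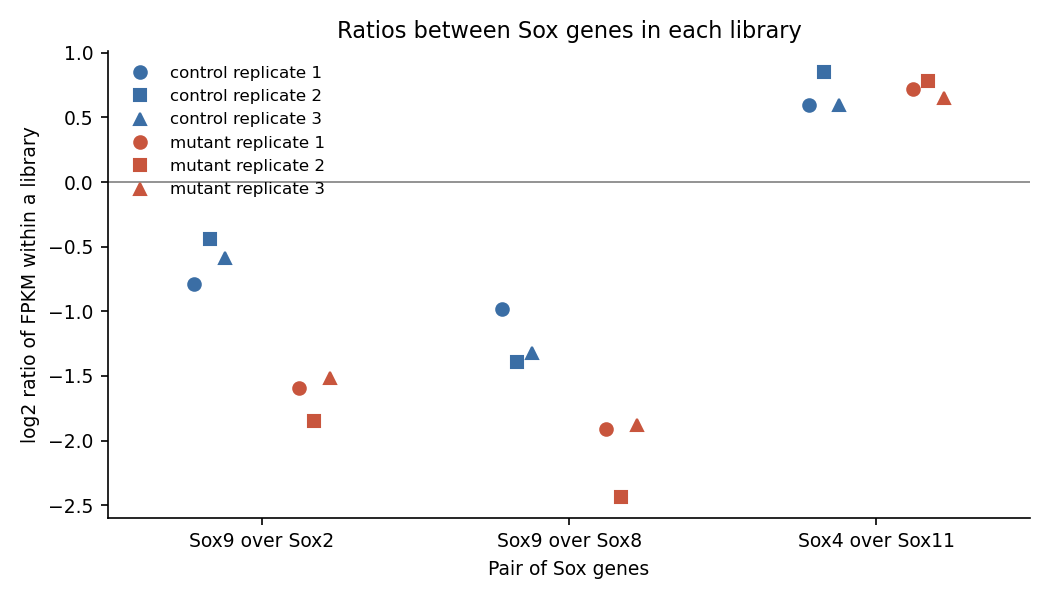
Log2 ratio of FPKM within each library for 3 pairs of Sox genes, controls in blue and mutants in red, symbols for the replicate numbers. Both ratios with Sox9 are lower in all 3 mutants than in any control, and the Sox4 to Sox11 ratio overlaps between the groups.

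Mutant replicate 3 had the highest FPKM of the 3 mutants in 9 of the 10 genes, all but Sox8, whereas that library was the highest mutant in 33.0% of all tested genes. This count was looked at after the values were seen. The same library had the highest summed FPKM of 7 cortical glutamatergic genes, 54.5, against 34.5 and 8.20 in mutant replicates 1 and 2 and 7.17 to 22.2 in the controls. The part of that library in the Sox values was not tested beyond leaving it out: without it, the log2 fold change of Sox9 was -1.24. Among the controls, replicate 1 was the highest library in 7 of the 10 genes and in 36.9% of all tested genes.

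Several members share their locus with another gene, and the use of strand in counting is not given in the sources used here. Sox2 lies inside Sox2ot, a long noncoding transcript on the same strand, which had 16.2 ± 2.64 FPKM in controls and 16.8 ± 3.49 in mutants. Sox1 lies inside Sox1ot on the same strand, which had 6.49, 5.28 and 5.65 in controls and 6.93, 7.18 and 7.25 in mutants, above every control as for Sox1 itself. The start of Sox8 overlaps the antisense transcript 2810468N07Rik by 329 bases, and that transcript had 12.4 ± 1.19 and 10.1 ± 1.11 FPKM (SD, n = 3 each). Overlap was read from annotated gene spans, and exons were not compared. How many fragments fit both genes of a pair was not measured. Sox4 overlaps Gm26735, and Sox5 overlaps 7 annotated genes, each of which had a mean FPKM under the filter of 0.5; Gm25239, a microRNA gene inside Sox1, was listed at 0 in every library. Sox9, Sox10, Sox3, Sox11 and Sox13 overlapped no other annotated gene.

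Of 10 other Sox genes, 6 passed the filter, and none of these had an adjusted p under 0.05 or an unadjusted p under 0.05 (limma, on FPKM or scaled counts). Sox12, the third SoxC gene, was the highest of them, with 35.4, 38.2 and 35.9 in controls and 39.9, 38.8 and 39.0 in mutants (log2 fold change 0.10 ± 0.04, SE). Its groups did not overlap, but they lay close together. Those of Sox18 did not overlap either, so this held for 2 of the 6, against 11.4% of all tested genes. Sox6, the third SoxD gene and a factor of interneurons from the medial ganglionic eminence, had 4.68 ± 1.04 and 5.36 ± 0.454. Sox21, a SoxB2 gene, had 1.98 ± 0.288 and 2.57 ± 0.645. The SoxF genes, which act in vessel endothelium, were low: Sox18 had 2.21 ± 0.161 and 2.53 ± 0.107, Sox17 had 0.840 ± 0.400 and 1.24 ± 0.185, and Sox7 had 0.674 ± 0.102 and 0.631 ± 0.244 (SD, n = 3 each). Sox14, Sox15 and Sry were listed at 0 in all 6 libraries, and Sox30 had a mean of 0.0597 in controls and 0.110 in mutants.

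Genes of radial glia and astrocytes, the cells in which Sox9 is best known, mostly lay at or slightly above their control level. In this and the following paragraphs, pairs of values give controls first and mutants second. Of 21 such genes, all tested, none had an adjusted or an unadjusted p under 0.05 on FPKM (limma), 1 was higher at an unadjusted p under 0.05 on scaled counts, and 20 had a positive estimate. Their median log2 fold change was 0.18, against 0.00 over all genes tested, and the 1 negative estimate was that of Aldh1l1, a folate enzyme gene of astrocytes (-0.15). Fabp7, a lipid-binding protein of radial glia, had 476 ± 61.5 FPKM in controls and 547 ± 58.5 in mutants, and the astrocyte glutamate transporter gene Slc1a2 had 8.06 ± 1.47 and 9.05 ± 0.476 (SD, n = 3 each). The water channel gene Aqp4 had 2.68 ± 0.599 and 3.19 ± 0.410, and the intermediate filament gene Gfap, low at this age, 0.482 ± 0.0675 and 0.847 ± 0.266 (SD, n = 3 each). Summed FPKM of the list was 907 to 1101 in controls and 976 to 1183 in mutants.

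Signals that act upstream of Sox9 in neural cells, the Notch, hedgehog and FGF pathways, were measured through 14 genes, of which none had an unadjusted p under 0.05 (limma, on FPKM or scaled counts) and so none passed after adjustment. Their median log2 fold change was 0.02. The FGF receptor gene Fgfr3, itself a mark of radial glia, had 9.38 ± 0.608 and 11.1 ± 1.19 FPKM, and the hedgehog effector genes Gli2 and Gli3 had 2.41 ± 0.441 and 1.97 ± 0.565, and 1.01 ± 0.197 and 1.26 ± 0.386 (SD, n = 3 each). The hedgehog transducer gene Smo had 3.36 ± 0.430 and 3.71 ± 0.490.

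For the oligodendrocyte lineage, in which Sox10 acts, 12 of 15 genes were tested on FPKM and none passed at an adjusted or an unadjusted p (limma). On scaled counts 14 were tested and 1 was higher at an unadjusted p under 0.05 (limma). That gene, Myrf, was not among the 12 tested on FPKM. The median log2 fold change was -0.01. Mbp, a myelin protein gene, had 8.87 ± 1.41 and 7.41 ± 0.535 FPKM, and Lhfpl3, a gene of oligodendrocyte precursors, 9.33 ± 2.39 and 11.3 ± 1.21 (SD, n = 3 each). Nkx2-2, a transcription factor gene of this lineage, had 1.20 ± 0.658 and 0.791 ± 0.477. Summed FPKM of the list was 89.9 to 119 in controls and 89.5 to 116 in mutants.

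Among 14 tested genes of neural progenitors, none passed on FPKM (0 at an unadjusted p under 0.05, limma), and 1 was lower at an unadjusted p under 0.05 on scaled counts. The median log2 fold change was 0.10. Nes, the intermediate filament gene of progenitors, had 11.6 ± 0.660 and 9.95 ± 1.56 FPKM, and Pou3f3, a POU factor gene, 57.3 ± 3.73 and 49.6 ± 5.50 (SD, n = 3 each). The homeobox gene Dlx2 had 15.0 ± 5.42 and 18.4 ± 4.08, and Prom1, a membrane protein gene of progenitors, 2.75 ± 0.521 and 3.32 ± 0.719. Of 13 genes of immature neurons, the cells of the SoxC genes, none passed after adjustment (limma, on FPKM or scaled counts), and 1 was lower at an unadjusted p under 0.05 on FPKM and 0 on scaled counts. That gene was Map2, a microtubule protein gene of dendrites, with 414 ± 14.3 and 380 ± 11.96 FPKM. Ncam1 had 94.1 ± 4.03 and 88.5 ± 1.39, Stmn1 1557 ± 29.4 and 1463 ± 29.9, and Dpysl3 651 ± 20.1 and 613 ± 33.5 (SD, n = 3 each). The median of this list was -0.04, and 4 of its 13 estimates were above 0.

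Genes of cells outside the brain that use Sox9 or Sox10 were also read. Of 8 cartilage genes, 4 passed the filter, none passed after adjustment (limma) and 1, Col9a2, was higher at an unadjusted p under 0.05 on FPKM (6.78 ± 0.318 and 8.91 ± 1.10) but none on scaled counts. Its fellow collagen genes Col9a3 and Col11a2 had 32.4 ± 0.875 and 31.8 ± 2.25 FPKM, and 7.19 ± 0.608 and 5.99 ± 0.779 (SD, n = 3 each). Col2a1, the main cartilage collagen gene, was low at 0.671 and 0.587, and Acan, a defining gene of cartilage, had a mean of 0.166 and 0.159. Of 8 genes of neural crest and Schwann cells, 2 passed the filter, and 1, Pmp22, was higher at an unadjusted p under 0.05 (2.93 ± 0.204 and 4.71 ± 0.386 FPKM; SD, n = 3 each) with none past adjustment. On scaled counts Pmp22 was again higher and Egr2, a factor gene of myelinating Schwann cells, was lower at an unadjusted p under 0.05 (2.30 ± 0.292 and 1.85 ± 0.516 FPKM), with none past adjustment (limma). Foxd3 was listed at 0 in every library. Summed FPKM of the cartilage list was 46.6 to 48.2 in controls and 46.0 to 50.9 in mutants, and that of the neural crest and Schwann cell list 5.26 to 6.13 and 6.52 to 8.30. Col9a3 made up most of the cartilage sum, and Pmp22 and Egr2 together most of the other sum. Whether RNA of these genes came from such cells was not tested.

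**Figure D5:**
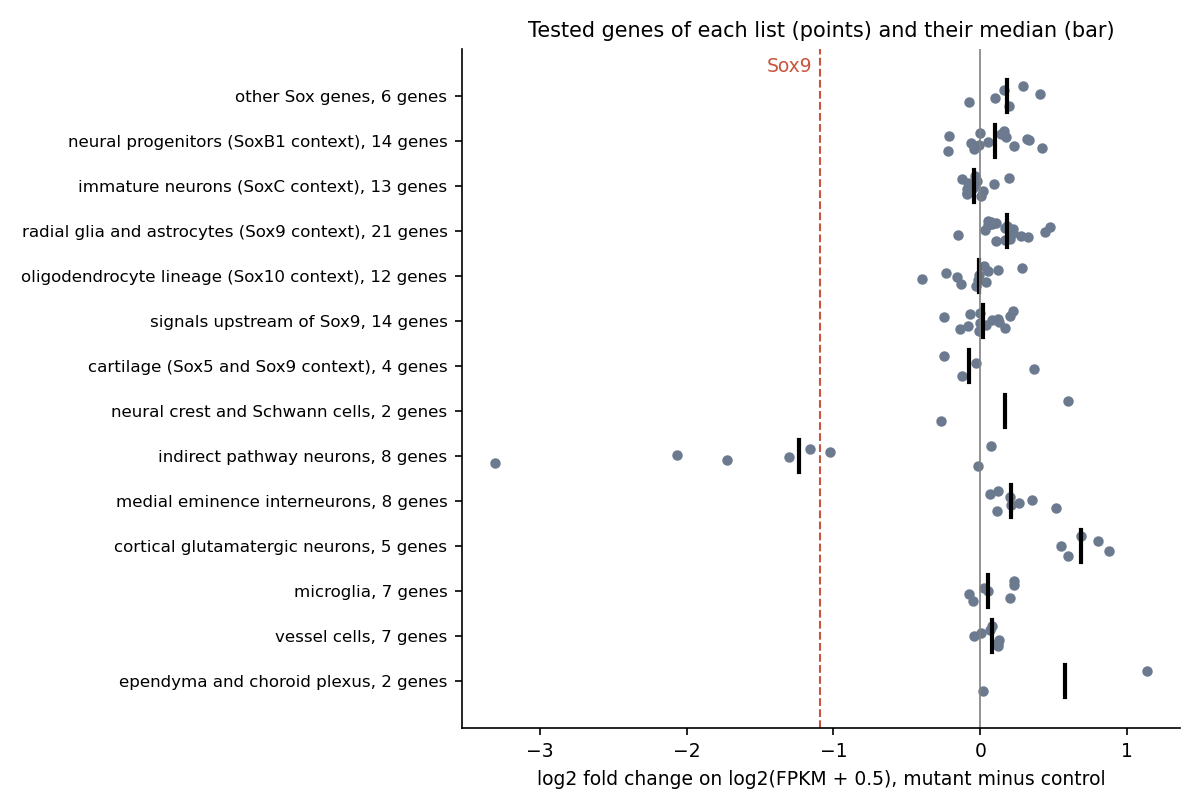
Log2 fold change, mutant minus control, of each tested gene (points) in 14 lists, with the list median (bar) and the value of Sox9 (dashed line, -1.09). Of the radial glia and astrocyte genes 20 of 21 lie above 0, while 6 of the 8 indirect pathway genes lie at -1.02 or lower.

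Of the 8 indirect pathway genes, 2 fell past the threshold over all genes on FPKM and 5 on scaled counts (limma, adjusted p under 0.05), and none rose; the lower level of several of them was known when the list was made. Their median log2 fold change was -1.23, and their summed FPKM was 237 to 271 in controls and 108 to 138 in mutants. The list did not fall as a whole: Drd2 had 45.0 ± 3.25 and 44.4 ± 1.97 FPKM (log2 fold change -0.02) and the transcription factor gene Six3 had 26.8 ± 4.01 and 28.2 ± 4.70 (0.07; SD, n = 3 each). Sp9, the floxed gene, had 20.1, 19.0 and 17.3 in controls and 8.37, 7.93 and 9.67 in mutants. By the root mean square difference between centred log2 values over the 6 libraries, among 9352 named genes whose mean FPKM reached 5, the 5 genes most like Sox9 were Sp9 (0.11), Grik3 (0.17), Scube1 (0.21), Wscd1 (0.25) and Gprin3 (0.25). Grik3, a kainate receptor subunit gene, had 27.5, 24.4 and 24.4 in controls and 11.6, 10.3 and 11.5 in mutants. Scube1, which encodes a secreted and membrane protein with EGF-like repeats, had 11.7, 11.5 and 11.7 in controls and 6.77, 5.93 and 8.06 in mutants. As for Sox9, the 3 mutants were below the 3 controls in each of these genes. Likeness over 6 libraries in 2 groups mostly reflects the difference between the groups and is given as a description. It was taken on FPKM only, where the log2 fold change was -1.08 ± 0.09 for Sp9 and -1.09 ± 0.15 for Sox9 (SE). On scaled counts these were further apart, at -1.32 ± 0.11 and -1.16 ± 0.13 (SE).

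Markers of further cell types were read beside these results. Of 8 genes of interneurons from the medial ganglionic eminence, 8 estimates were above 0, and 2 were higher at an unadjusted p under 0.05, Nxph1 (7.60 ± 0.274 and 8.83 ± 0.184 FPKM) and the transcription factor gene Lhx8 (8.39 ± 1.83 and 12.1 ± 1.69; SD, n = 3 each), with none past adjustment (limma). On scaled counts 3 of the 8 interneuron genes were higher at an unadjusted p under 0.05, again with none past adjustment (limma). None of the 5 tested cortical glutamatergic genes, 7 microglial genes and 7 vessel genes had an unadjusted p under 0.05 on FPKM (limma). Their median log2 fold changes were 0.69, 0.06 and 0.08. On scaled counts 1 of 6 tested cortical genes was higher at an unadjusted p under 0.05 (limma), with 0 past adjustment, against 0 microglial and 0 vessel genes. The ependyma and choroid plexus list held 8 genes, of which 2 passed the filter on FPKM, with none past adjustment (limma). Ttr, the transthyretin gene of the choroid plexus, was higher at an unadjusted p under 0.05 (limma) at a low level (0.392 ± 0.413 and 1.35 ± 0.276 FPKM). Foxj1, the other gene that passed, had 0.641 ± 0.154 and 0.661 ± 0.174 (SD, n = 3 each). Folr1 of the choroid plexus was listed at 0 in every library. The part of these cells in the Sox values was not tested.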

How the data were processed

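Per the labels, total RNA of 6 striatal samples was sequenced. Per the submitters' processing notes, TopHat (version not given) and Cufflinks 2.1.1 were used with build GRCm38.p4. Annotation release, use of strand, read length and handling of multi-mapped reads are details not given in the sources used here. The authors deposited 1 table with FPKM and a count column for each library. The deposited count values are not whole and were read as a signal, called scaled counts: 98.4 to 98.6% of values above 0.01 and up to 100 fragments lay within 0.1 of a whole multiple of 1 step per library (0.970 to 1.15). Dividing by it gave 16237067 to 19457784 estimated fragments per library, so counting error is small for all but the lowest members. No count test was run.

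Symbols came from GENCODE M21 (46483 of 47062 identifiers matched). Genes whose mean FPKM reached 0.5 entered limma 3.58.1 (R 4.3.3) as log2(FPKM + 0.5), with a variance trend and no covariate. The p-values are two-sided with Benjamini-Hochberg adjustment over all genes and a threshold of 0.05. Fold changes on this scale understate those of low genes. Correlations of log2 values between libraries were 0.825 to 0.859. Data were also simulated for this comparison (16379 genes, 200 of them changed, dispersion set to 0.005). On these, the fit recovered 42% of genes changed 1.5-fold and 90% of those changed 2-fold, and called 8 unchanged genes. The changed genes were drawn only from those with higher counts, so low genes such as Sox3 are not covered. The rates hold for the values set in the simulation and do not give the share of 2-fold changes found in the real libraries. There, Sox9, lower by 2.13-fold with a residual standard deviation of 0.21, did not pass the adjusted threshold on FPKM (limma).

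The 10 genes and 14 gene lists were chosen with earlier results of these data known. Named genes were the 10, the other Sox genes, genes that overlap a member, Sp9, the 5 genes most like Sox9 and, from each list, genes past the threshold and up to 4 more with the smallest p. Some lists are given by counts only, and some genes the rule takes are not reported here. As alternatives, the pseudocount was 0.1 or 1, the filter was dropped or raised to 1, values were quantile normalized or scaled by median ratios, and limma was run with a replicate block or robustly. Others were log2(scaled count + 1) over genes with a mean of at least 10, that filter on FPKM, and each library left out. Protein sequences were not used here.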

Additional observations from a re-analysis of the deposited data

How the results depend on the processing

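Sox9 was lower in the mutants under all 16 alternatives, with a log2 fold change from -1.24 to -1.002, which is also its range with 1 library left out. It passed an adjusted p of 0.05 on scaled counts alone (limma), as did 0.143% of 16125 genes, so that 1 member passed there and 0 in the other fits. Since Sox9 was listed with its lower level in view, its passing there is a description only. Members at an unadjusted p under 0.05 numbered 1 as reported (5.65% of all genes), 2 with the replicate block (Sox8 in addition; 5.06% of all genes) and 1 to 2 with 1 library left out (Sox8 without control replicate 1, Sox4 without control replicate 2; 6.09% and 7.38%). Groups were clear of each other in 2 members as reported (11.4% of all genes) and in 2 to 4 with 1 library left out (4 without control replicate 2 or mutant replicate 3), where this held for 17.6 to 24.9% of all genes. The sign of Sox5 was kept in 11 of 16 alternatives, of Sox3 in 14, of Sox10 in 15 and of each other member in all 16. The log2 ratio of Sox9 to Sox2 differed between groups by -1.14 to -0.95 with 1 library left out, that of Sox9 to Sox8 by -0.94 to -0.66 and that of Sox4 to Sox11 by -0.01 to 0.12.

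Over all genes, 10 were called as reported, 5 with the replicate block, 23 on scaled counts and between 12 and 23 when 1 library was dropped (18 to 23 for each library but control replicate 2). The study's rule called 57, against 90 and 37 at pseudocounts of 0.1 and 1, 29 after the scaled-count filter, and between 73 and 86 when 1 library was dropped. The causes were not tested. No pairing of the libraries by replicate number was seen: deviations from the group means correlated at 0.00, 0.04 and 0.04 for libraries with the same number, and those of different numbers at -0.07 to 0.03. Whether libraries shared a litter or a batch was not tested. Depth limits Sox3, with at most 47 fragments per library.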
